A study of Saccharomyces cerevisiae with 6 samples.

Results

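Autophagy genes were examined in yeast exposed to a lipid hydroperoxide. The 41 genes are those whose probe sets carry a standard name of ATG and a number, together with VPS30, VPS15, VPS34, PEP4, PRB1, APE1 and AMS1, and they were taken from 5449 genes with a probe set on the array. They were chosen by name and not by a measured value, though with earlier results of these data known. The 36 genes listed by name were all found, and the name pattern added ATG36, ATG38, ATG39, ATG40 and ATG41. Each of the 41 had 1 probe set, so no choice among probe sets was needed, and the brightest negative control averaged 5.15 on the log2 scale, below all 41. ATG42, ATG44 and ATG45 were not analysed here.

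All cultures were of the diploid Saccharomyces cerevisiae strain BY4743, growing exponentially in minimal medium at 30 °C. At an OD600 of 1.0 the treated group received 75 µM LoaOOH, linoleic acid hydroperoxide, a dose that the labels describe as growth-arresting, and the control group received the same volume of its solvent, methanol. Cells were collected 1 h later, with 3 biological replicate cultures per group and 1 Affymetrix Yeast_2 array each, which carries short oligonucleotide probes for yeast messages. The comparison asks how the messages of the autophagy machinery stood in treated against solvent-treated cells at this single dose and time.

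Autophagy carries cytoplasm to the vacuole, the degradative organelle of yeast, inside double-membraned vesicles. A kinase complex around Atg1 starts the process, a lipid kinase marks the membrane, Atg9 vesicles and a lipid transfer protein supply it, and ubiquitin-like proteins are joined to lipid and to each other to let it expand. Receptors tether chosen cargo, and vacuolar lipase and proteases break the contents down. In growing cells much of the same machinery runs the cytoplasm-to-vacuole targeting (Cvt) pathway, which delivers the hydrolases Ape1 and Ams1. Message levels say nothing of the rate of autophagy, which was not measured here.

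Values are log2 signals after RMA, a method that subtracts background and gives all arrays nearly the same distribution. A difference is therefore relative to the typical message on the array. Over the 5498 probe sets tested, correlations ran from 0.998 to 0.999 within a group and from 0.9505 to 0.954 between groups. The 36 probe sets for bacterial poly-A messages added to the RNA were lower by 0.518 in the LoaOOH arrays (7.44 ± 0.165 against 6.93 ± 0.125, SD, n = 3; exact two-sided permutation p = 0.1, the smallest possible here). Scaling the arrays to them raises every difference by 0.518, and the scaled values are given below wherever a direction is given for lower messages. That scaling adds to each array an error shared by all its probe sets, and calls after it follow the difference alone. ATG12 and GCN4, both at 0.64 after it, had the same limma adjusted p of 5.72e-06. Their standard errors in the deposited scaling were 0.0625 and 0.0412. Calls after spike-in scaling, above all those near the threshold, are therefore less certain than their adjusted p-values. The gap between 3′ and 5′ probe sets, a sign of RNA or labelling quality, moved by -0.147 to 0.584 over 7 control messages, up in 4 and down in 3. Its part in the results was not tested. Of the genes that BY4743 lacks, URA3 read 3.25 to 3.85 and LEU2 5.23 to 5.67, below or near the brightest negative control. HIS3, which the strain carries as a partial deletion, read 10.95 to 12.46. Of 10 haploid-specific or mating genes, 9 lay in the lowest 10.9% of probe sets by signal, and the exception was RME1, at 10.001 to 10.56.

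Autophagy messages did not move as a block. By limma with Benjamini-Hochberg adjustment over all 5498 probe sets, 15 of the 41 rose (36.6%) and 14 were lower relative to the typical message (34.1%), while 12 were not called, where 36.8% of all probe sets were called higher and 41.9% lower. The 29 called members were 70.7% of the list, and 78.7% of all probe sets were called. The counts were thus near or below the background, and the median difference of the 41 was 0.03 against -0.03 over all probe sets. After spike-in scaling 29 were higher and 1 was lower, with a median of 0.55 against 0.48 over all probe sets, of which 65.9% were called higher and 7.68% lower.

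The sizes of the differences were also close to those over the whole array. The absolute difference was under 0.5 in 28 of the 41 (68.3%), against 66.7% of all probe sets. Only ATG1 and ATG41 differed by at least 2-fold, which is 4.88% of the list against 9.17% of all probe sets called at that size. In the highest 10% of all differences lay 6 members (14.6%), namely ATG1, ATG41, ATG33, ATG36, ATG40 and ATG8. In the lowest 10% lay 2 (4.88%), ATG14 and ATG21. The groups did not overlap in 29 members, the same share of 70.7%, against 81.1% of all probe sets. In the 12 not called, the 95% intervals of the difference reached no lower than -0.32 and no higher than 0.26. RNA came from whole cultures, so fewer cells holding a message and less of it per cell cannot be told apart.

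**Figure D1:**
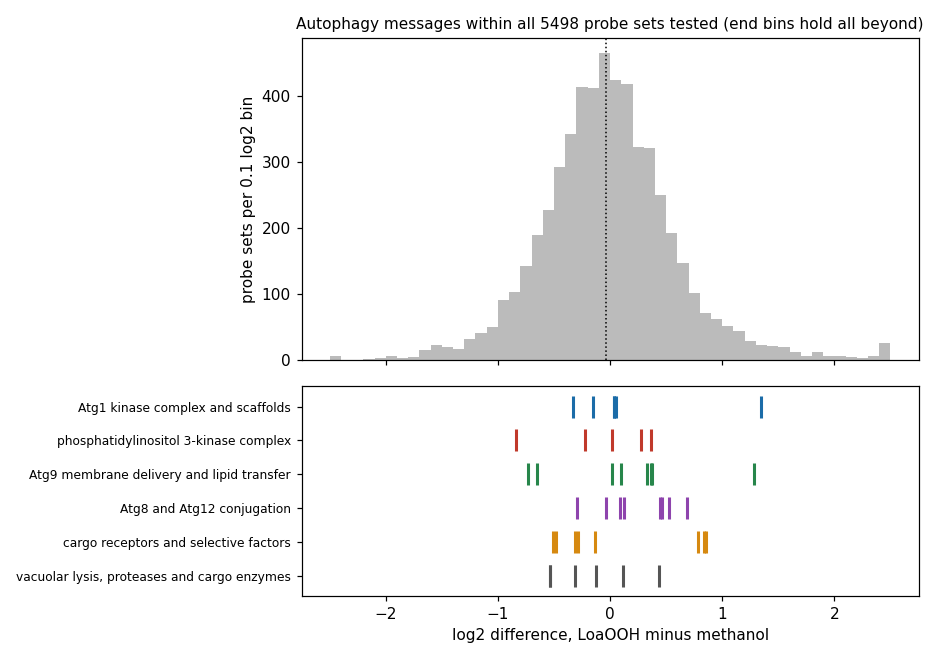
The upper panel is a histogram of the log2 difference (LoaOOH minus methanol) of all 5498 probe sets in the deposited scaling, with the dotted line at their median of -0.03, and the lower panel marks each of the 41 autophagy genes by role. ATG1 at 1.34 and ATG41 at 1.28 lie farthest to the right, and ATG14 at -0.84 lies farthest to the left.

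The message of the kinase that starts autophagy rose, and of those of its 5 partners 1 was lower and 4 were not called, so that 33.3% of the complex was called against 78.7% of all probe sets. ATG1, the protein kinase at the head of the pathway, read 9.10, 9.08 and 9.09 in the methanol cultures and 10.37, 10.48 and 10.45 in the LoaOOH cultures. All treated cultures lay more than 1 log2 unit above all controls. The rise was 2.54-fold (log2 difference 1.34, SE 0.0449, n = 3 per group, limma adjusted p = 1.84e-08), and it ranked 140 from the top among the 5498 differences. The partner called was ATG31, a subunit of the scaffold formed with Atg17 and Atg29, which read 10.47, 10.53 and 10.62 in methanol and 10.23, 10.23 and 10.16 in LoaOOH. It was 1.26-fold lower (adjusted p = 0.000261) in the deposited scaling, and its log2 difference was 0.19 with no call (adjusted p = 0.203) after spike-in scaling.

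The groups overlapped for the 4 remaining partners. ATG13, the regulatory subunit through which the TORC1 kinase restrains Atg1, differed by 0.03 (95% interval -0.08 to 0.14). ATG11, the scaffold used for selective cargo, differed by 0.03 (-0.09 to 0.16) and ATG29 by 0.06 (-0.07 to 0.18). ATG17 read 10.37, 10.29 and 10.29 in methanol and 9.999, 10.20 and 10.29 in LoaOOH, so that its treated cultures spread from below all controls to the level of the lowest of them. Its difference of -0.15 was not called (adjusted p = 0.0769), but was called without LoaOOH replicate 3 (-0.22, adjusted p = 0.0233). After spike-in scaling ATG1, ATG11, ATG13, ATG17 and ATG29 were all called higher.

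**Figure D2:**
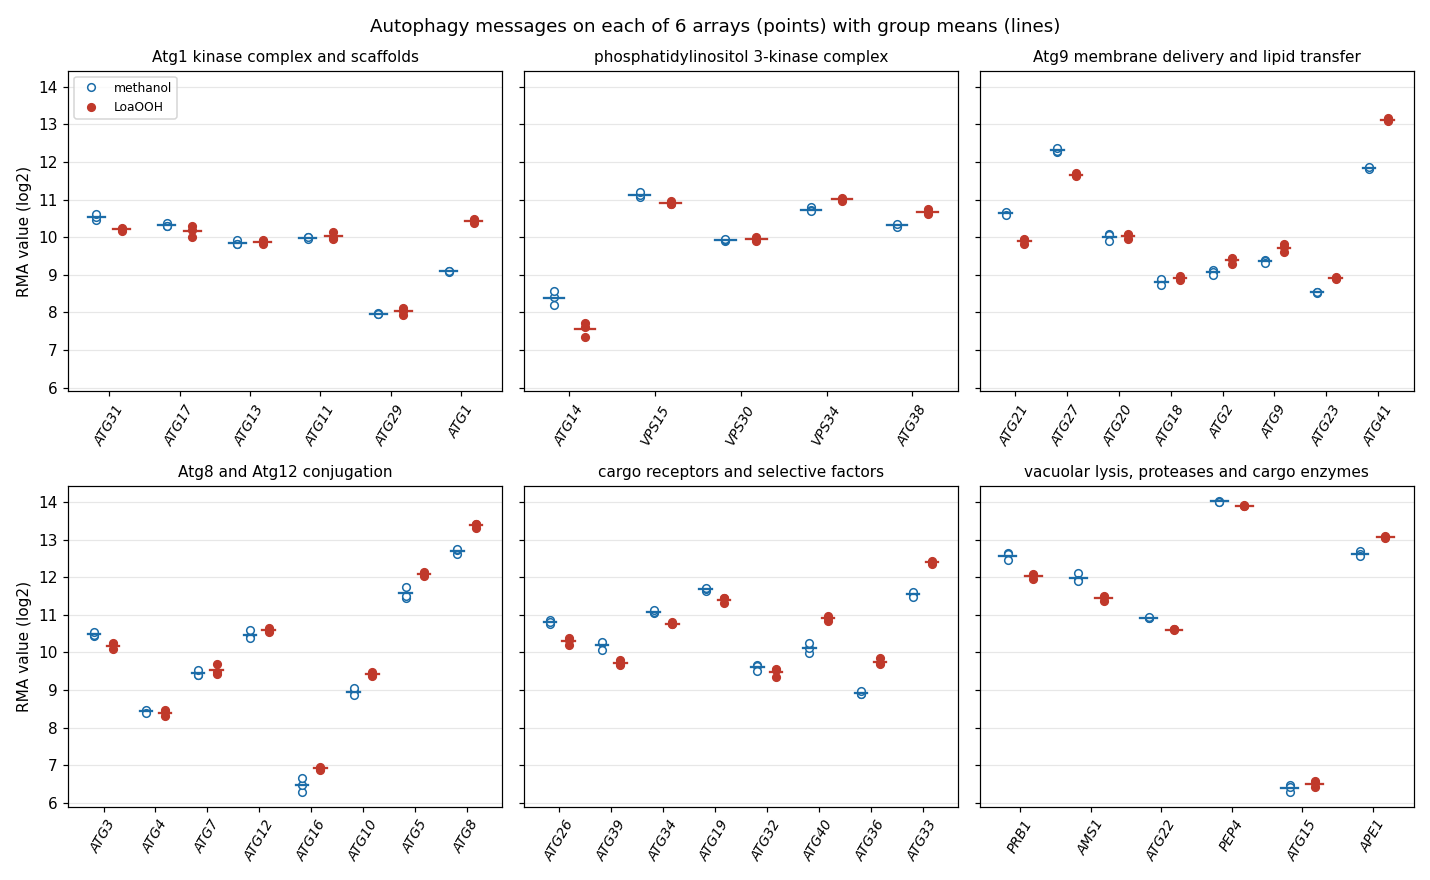
Each panel holds the genes of 1 role, ordered by their difference, with the RMA value on the log2 scale for the 3 methanol arrays (open) and the 3 LoaOOH arrays (filled) and a line at each group mean. ATG1 reads about 9.09 in methanol and 10.43 in LoaOOH on average, and the points of its groups do not overlap.

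The phosphatidylinositol 3-kinase complex was split in the deposited scaling. Vps34 is the lipid kinase, Vps15 its regulatory partner, Vps30 a subunit shared with the endosomal complex, and Atg14 and Atg38 the subunits that the autophagy complex alone contains. Of the 5 messages 2 rose, 2 were lower and 1 was not called, or 40% each way against 36.8% higher and 41.9% lower over all probe sets. After spike-in scaling 4 were called higher and 1 lower, where 65.9% and 7.68% of all probe sets were. ATG14 read 8.19, 8.42 and 8.58 in methanol and 7.34, 7.72 and 7.61 in LoaOOH, with an SD of 0.195 in each group, the widest among the 41 members in methanol and in LoaOOH. The groups nonetheless did not overlap, and ATG14 fell 1.79-fold (log2 difference -0.84, SE 0.115, n = 3 per group, limma adjusted p = 0.000126), the largest fall of the 41. It was also the 1 member still called lower after spike-in scaling (-0.32, adjusted p = 0.027), a call near the threshold and so uncertain.

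ATG38 went the other way from ATG14. It read 10.30, 10.28 and 10.36 in methanol and 10.61, 10.67 and 10.75 in LoaOOH, a 1.29-fold rise (adjusted p = 0.000127). VPS34 rose from 10.81, 10.71 and 10.69 in methanol to 10.97, 11.02 and 11.05 in LoaOOH, which is 1.21-fold (adjusted p = 0.000585). VPS15 read 11.07, 11.12 and 11.21 in methanol and 10.88, 10.95 and 10.89 in LoaOOH, 1.17-fold lower in the deposited scaling (adjusted p = 0.00249), but higher after spike-in scaling (0.29, adjusted p = 0.0417). VPS30 differed by 0.02 (95% interval -0.08 to 0.12), with overlapping groups. VPS38, which takes the place of Atg14 in the endosomal complex and is no member of the list, also read lower, 9.82, 9.94 and 10.12 in methanol and 9.36, 9.43 and 9.40 in LoaOOH (-0.56, adjusted p = 8.14e-05; -0.046 and not called after spike-in scaling).

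Among genes that bring membrane to the forming vesicle, 4 of 8 rose (50%) and 2 were lower (25%), against 36.8% and 41.9% of all probe sets. The share called, 75%, was close to the 78.7% over the array. ATG41, also known as ICY2, acts with Atg9 in autophagosome formation. It read 11.83, 11.82 and 11.88 in methanol and 13.10, 13.17 and 13.11 in LoaOOH, a 2.43-fold rise (log2 difference 1.28, SE 0.0429, n = 3 per group, limma adjusted p = 1.84e-08) that ranked 157 among all differences. The treated and control cultures lay over 1 log2 unit apart, as for ATG1. ATG9, the transmembrane protein of the vesicles that seed the membrane, read 9.38, 9.36 and 9.32 in methanol and 9.60, 9.75 and 9.83 in LoaOOH (1.29-fold higher, adjusted p = 0.000434). ATG23, which helps Atg9 move, read 8.56, 8.52 and 8.55 in methanol and 8.94, 8.92 and 8.90 in LoaOOH (1.3-fold higher, adjusted p = 2.52e-05). ATG2, the lipid transfer protein, read 9.12, 9.08 and 8.99 in methanol and 9.46, 9.43 and 9.30 in LoaOOH (1.26-fold higher, adjusted p = 0.000613). These 3 rises were alike in size, at 0.33 to 0.37 on the log2 scale, and far below that of ATG41.

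ATG27, a membrane protein that like Atg23 works in Atg9 transport, went against them. Its values were 12.28, 12.29 and 12.38 in methanol and 11.72, 11.62 and 11.66 in LoaOOH, 1.57-fold lower (log2 difference -0.65, SE 0.049, adjusted p = 2.39e-06), and its log2 difference was -0.13 with no call after spike-in scaling. The related lipid-binding proteins Atg18 and Atg21 recognise the phosphoinositide that Vps34 makes, Atg18 together with Atg2 and Atg21 as a guide for the conjugation machinery. ATG21 read 10.63, 10.67 and 10.60 in methanol and 9.96, 9.93 and 9.83 in LoaOOH, 1.66-fold lower (-0.73, adjusted p = 1.11e-06; -0.21 and not called after spike-in scaling). ATG18 differed by 0.10 (95% interval -0.02 to 0.22) with overlapping groups. HSV2, the third gene of this family and no member here, rose by 0.32 (adjusted p = 0.0004), so the 3 relatives had 1 lower, 1 higher and 1 not called. ATG20, a sorting nexin, differed by 0.01 (-0.13 to 0.16). Its partner SNX4 and the related SNX41, both outside the list, rose, SNX41 from 8.91, 8.85 and 8.79 in methanol to 9.92, 10.03 and 10.08 in LoaOOH (2.23-fold, adjusted p = 1.48e-07) and SNX4 from 10.97, 11.02 and 11.10 in methanol to 11.67, 11.88 and 11.77 in LoaOOH (1.67-fold, adjusted p = 4.41e-06).

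In the conjugation machinery 4 of 8 messages rose, those of ATG8, ATG5, ATG10 and ATG16, while 1 was lower and 3 were not called. These are 50% higher and 12.5% lower, against 36.8% and 41.9% of all probe sets. ATG8, the protein that is joined to phosphatidylethanolamine on the growing membrane, read 12.62, 12.72 and 12.75 in methanol and 13.32, 13.41 and 13.41 in LoaOOH. The groups stood clear of each other, and the rise was 1.61-fold (log2 difference 0.68, SE 0.0504, n = 3 per group, limma adjusted p = 2.11e-06). Of the enzymes that act on Atg8, the message of the conjugating enzyme ATG3 read 10.44, 10.47 and 10.54 in methanol and 10.08, 10.23 and 10.24 in LoaOOH. It was 1.23-fold lower (adjusted p = 0.000907), and its log2 difference was 0.22 with no call after spike-in scaling. The protease ATG4 (-0.04, 95% interval -0.15 to 0.08) and the activating enzyme ATG7, which serves both branches (0.09, -0.07 to 0.25), were not called.

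The other ubiquitin-like protein, Atg12, is attached to Atg5 by Atg10 and assembles with Atg16. ATG5 read 11.46, 11.51 and 11.75 in methanol and 12.04, 12.10 and 12.14 in LoaOOH (1.44-fold higher, adjusted p = 0.000161). ATG10 read 8.97, 8.86 and 9.05 in methanol and 9.37, 9.41 and 9.47 in LoaOOH (1.38-fold higher, adjusted p = 6.25e-05). In each of these genes every treated culture lay above every control. ATG16 read 6.29, 6.48 and 6.66 in methanol and 6.91, 6.96 and 6.89 in LoaOOH (1.36-fold higher, adjusted p = 0.000952), the controls spreading more than the treated cultures. ATG12 itself read 10.43, 10.38 and 10.59 in methanol and 10.55, 10.57 and 10.66 in LoaOOH, where methanol replicate 3 lay above 2 of the treated cultures. Its difference of 0.12 was not called (adjusted p = 0.101), but was called without methanol replicate 3 (0.19, adjusted p = 0.0102).

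**Figure D3:**
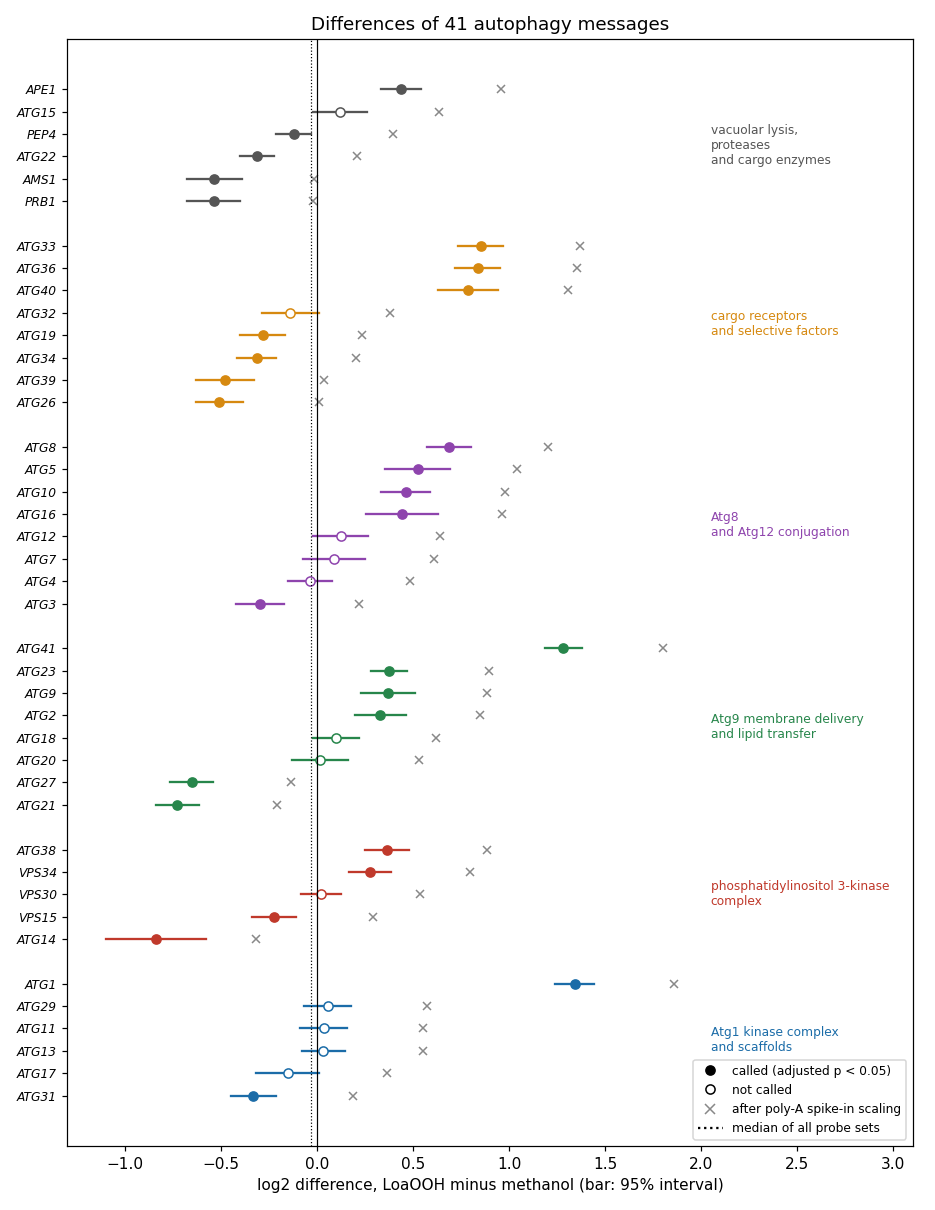
The log2 difference (LoaOOH minus methanol) of each of the 41 genes is shown as a point with its 95% interval, filled where called and open where not, coloured by role, with crosses for the poly-A spike-in scaling and a dotted line at the median of all probe sets. In the deposited scaling every role holds at least 1 gene called higher and 1 called lower, whereas after spike-in scaling ATG14 alone is called lower.

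Of the 8 receptors and other factors for chosen cargo 3 rose (37.5%), 4 were lower (50%) and 1 was not called, near the 36.8% and 41.9% of all probe sets. ATG33, a mitochondrial outer membrane protein used in the removal of mitochondria, read 11.56, 11.62 and 11.46 in methanol and 12.35, 12.43 and 12.42 in LoaOOH (1.81-fold higher, log2 difference 0.85, SE 0.0516, n = 3 per group, limma adjusted p = 6.13e-07). ATG36, the receptor for peroxisomes, read 8.90, 8.89 and 8.97 in methanol and 9.72, 9.85 and 9.70 in LoaOOH (1.78-fold higher, adjusted p = 7.31e-07). ATG40, a receptor for the cortical and cytoplasmic endoplasmic reticulum, read 9.998, 10.12 and 10.26 in methanol and 10.84, 10.97 and 10.92 in LoaOOH (1.72-fold higher, adjusted p = 6.68e-06). The 3 rises lay between 0.79 and 0.85 on the log2 scale, and in each gene all treated cultures lay above all controls.

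The remaining receptors did not share that rise. ATG39, the receptor for the nuclear envelope, read 10.26, 10.27 and 10.06 in methanol and 9.67, 9.80 and 9.69 in LoaOOH, 1.39-fold lower (adjusted p = 0.000131), with a log2 difference of 0.038 and no call after spike-in scaling. ATG32, the mitochondrial receptor itself, read 9.68, 9.65 and 9.52 in methanol and 9.56, 9.52 and 9.36 in LoaOOH. Its groups overlapped and its difference of -0.14 was not called (adjusted p = 0.0801), though it was called lower without methanol replicate 3 (-0.19, adjusted p = 0.0301) or without LoaOOH replicate 1 (-0.18, adjusted p = 0.0468), and higher after spike-in scaling (0.38). ATG19, the receptor of the Cvt pathway, and ATG34, its relative for Ams1 in starvation, are neighbouring genes on chromosome XV in the R64 gene table. ATG19 read 11.63, 11.69 and 11.72 in methanol and 11.30, 11.44 and 11.44 in LoaOOH, and ATG34 read 11.04, 11.07 and 11.13 in methanol and 10.74, 10.81 and 10.74 in LoaOOH. Both were lower by a like amount, -0.28 (adjusted p = 0.000875) and -0.31 (adjusted p = 0.000158), and neither was called after spike-in scaling (0.23 and 0.20). ATG26, a sterol glucosyltransferase whose role in the removal of peroxisomes is known from the yeast Komagataella, read 10.76, 10.85 and 10.82 in methanol and 10.33, 10.37 and 10.20 in LoaOOH (-0.51, adjusted p = 2.42e-05; 0.0093 and not called after spike-in scaling).

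At the vacuole, where the vesicle is opened and its contents are digested, 4 of 6 messages were lower (66.7%) and 1 was higher (16.7%), against 41.9% and 36.8% of all probe sets. The 5 called are 83.3% of the role, close to the 78.7% over the array. The exception was APE1, aminopeptidase I, the main cargo of the Cvt pathway, which read 12.69, 12.63 and 12.56 in methanol and 13.09, 13.05 and 13.06 in LoaOOH (1.35-fold higher, log2 difference 0.44, SE 0.0468, n = 3 per group, limma adjusted p = 2.47e-05). AMS1, the alpha-mannosidase that travels by the same route, read 12.11, 11.93 and 11.91 in methanol and 11.49, 11.47 and 11.38 in LoaOOH (1.45-fold lower, adjusted p = 4.37e-05; -0.016 and not called after spike-in scaling). The 2 cargo enzymes thus differed in opposite directions in the deposited scaling, as did APE1 and its receptor ATG19. PRB1, proteinase B, read 12.63, 12.62 and 12.46 in methanol and 12.10, 12.05 and 11.96 in LoaOOH (1.45-fold lower, adjusted p = 3.34e-05; -0.02 and not called after spike-in scaling). ATG22, which exports amino acids from the vacuole, read 10.91, 10.93 and 10.93 in methanol and 10.60, 10.62 and 10.62 in LoaOOH (1.24-fold lower, adjusted p = 6.93e-05; 0.21 and not called after spike-in scaling). Its replicates were close together, with an SD of 0.0139 in methanol and 0.0101 in LoaOOH, and all treated cultures lay below all controls.

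PEP4, proteinase A, which activates the other vacuolar proteases, had a small difference. It read 14.04, 14.01 and 14.01 in methanol and 13.91, 13.89 and 13.89 in LoaOOH, so the groups did not overlap, but the difference was -0.12 (adjusted p = 0.018). That call was lost without methanol replicate 1, methanol replicate 2, LoaOOH replicate 2 or LoaOOH replicate 3 (adjusted p = 0.0559 to 0.0582) and with repeated quantile normalisation (0.0527), and PEP4 was called higher after spike-in scaling (0.40, adjusted p = 0.00558). ATG15, the lipase that opens the vesicle in the vacuole, read 6.29, 6.48 and 6.41 in methanol and 6.59, 6.53 and 6.43 in LoaOOH, and was not called (0.12, 95% interval -0.02 to 0.26). With ATG16 it lay nearest the negative controls, where RMA values are known to compress changes.

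Genes that work with the autophagy machinery but are not among the 41 were counted in 6 lists. Of 11 transcription regulators of ATG genes 3 were higher and 5 lower, and 7 and 1 after spike-in scaling. The counts of all 6 lists stand against 36.8% of all probe sets called higher and 41.9% lower, and 65.9% and 7.68% after that scaling. GLN3, a GATA activator that responds to nitrogen, read 9.56, 9.59 and 9.63 in methanol and 10.57, 10.61 and 10.62 in LoaOOH (2.01-fold higher, adjusted p = 6.17e-08). GAT1, the other GATA activator, read 10.57, 10.63 and 10.53 in methanol and 9.83, 9.74 and 9.66 in LoaOOH (1.78-fold lower, adjusted p = 9.62e-07; -0.31, adjusted p = 0.0297, after spike-in scaling). The 2 activators moved apart in both scalings, though the call of GAT1 after spike-in scaling lies near the threshold and is uncertain. UME6, which represses ATG8 with the histone deacetylase Rpd3 and its partner Sin3, rose by 0.43, while RPD3 (-0.54) and SIN3 (-0.22) were lower and stood at -0.022 (not called) and 0.30 (called higher) after spike-in scaling. GCN4, the activator of amino acid synthesis, was higher by 0.12 (adjusted p = 0.022). The kinase GCN2, which controls GCN4 translation, was lower at -0.53, as was the histone gene regulator SPT10 at -0.25 (-0.01 and 0.27, neither called, after spike-in scaling). The small calls of GCN4 and SPT10 did not hold with each array left out. That of GCN4 was lost without methanol replicate 1 or 2 or LoaOOH replicate 1 or 2 (adjusted p = 0.0529 to 0.0737). Its difference stayed at 0.11 to 0.14 over the arrays left out in turn. That of SPT10 was lost without methanol replicate 1 or 3 or LoaOOH replicate 3 (0.0571 to 0.0764), its difference being -0.14 without the last.

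Of 22 measured genes of TORC1 and nutrient signalling 3 were higher and 9 lower (14 and 1 after spike-in scaling), with a median of -0.06. TPK3, a catalytic subunit of protein kinase A, read 10.73, 10.72 and 10.89 in methanol and 9.83, 9.71 and 9.84 in LoaOOH (1.98-fold lower, adjusted p = 6.91e-07; -0.46, still called, after spike-in scaling). BCY1, the regulatory subunit of that kinase (-0.61), and GTR2, a GTPase upstream of TORC1 (-0.65), were lower too, though not called after spike-in scaling (-0.093 and -0.14). The higher ones were MEH1 (0.51), a vacuolar anchor of the Gtr GTPases, the kinase SCH9 (0.50), a TORC1 substrate, and NPR2 (0.22), an inhibitor of TORC1.

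Of 20 measured genes for sorting, tethering and vacuole fusion 5 were higher and 11 lower (12 and 1 after spike-in scaling), with a median of -0.23. VAM3, the vacuolar SNARE needed for fusion of the finished vesicle, read 10.64, 10.68 and 10.83 in methanol and 9.34, 9.25 and 9.25 in LoaOOH. It fell 2.71-fold (log2 difference -1.44, SE 0.0595, adjusted p = 6.19e-08), more than any of the 41 members, and stood at -0.92, still called, after spike-in scaling. MON1, part of the exchange factor for the Rab protein Ypt7, was lower at -0.66 (-0.14 and not called after spike-in scaling). The higher ones, besides SNX41, SNX4 and HSV2, were the SNARE YKT6 (0.30) and VPS33 (0.17). The call of VPS33 was lost without methanol replicate 1 or 2 or LoaOOH replicate 2 (adjusted p = 0.0915 to 0.0959).

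Of 16 other vacuolar hydrolases and amino acid transporters 3 were higher and 10 lower (10 and 1 after spike-in scaling), with a median of -0.14. Without methanol replicate 2 the lower ones numbered 6. The transporters moved both ways: AVT6 fell 2.18-fold (adjusted p = 2.61e-06; -0.60 and still called after spike-in scaling) and AVT3 rose 1.75-fold (adjusted p = 3.75e-06). AVT1 (-0.60) and PBI2, an inhibitor of proteinase B (-0.58), were lower in the deposited scaling and not called after spike-in scaling (-0.08 and -0.063). LAP3, a cysteine protease, was higher by 0.51 and PHO8, the vacuolar phosphatase, by 0.26.

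Of 18 genes of the vacuolar proton pump or its assembly, 6 were higher and 10 lower (13 and 0 after spike-in scaling), with a median of -0.13 and no difference beyond 0.5. With repeated quantile normalisation 2 were higher, VMA21 losing its call among others (adjusted p = 0.0516). VPH1 and STV1, the vacuolar and Golgi forms of the membrane subunit, were lower at -0.48 and -0.47, and VMA6 at -0.43, none called after spike-in scaling (0.034, 0.053 and 0.086). The highest were VMA16 (0.38) and the assembly factors VMA22 (0.31) and VMA21 (0.24). Of 11 organelle-selective autophagy partners 5 were higher and 3 lower (8 and 1 after spike-in scaling), with a median of 0.02. FIS1 (0.49) and DNM1 (0.14), which divide mitochondria and peroxisomes, the ubiquitin-binding receptor CUE5 (0.40), PEX3, the peroxisomal anchor of Atg36 (0.24), and BRE5, a cofactor of the deubiquitinase Ubp3 (0.22), were higher. The call of DNM1 was lost without methanol replicate 1 or 3 or LoaOOH replicate 2 or 3 (adjusted p = 0.0544 to 0.125). PEX14, a peroxisomal docking protein (-0.90; -0.38 and still called after spike-in scaling), UTH1 (-0.61; -0.091 and not called) and the phosphatase gene PTC6 (-0.31; 0.20 and not called) were lower.

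**Figure D4:**
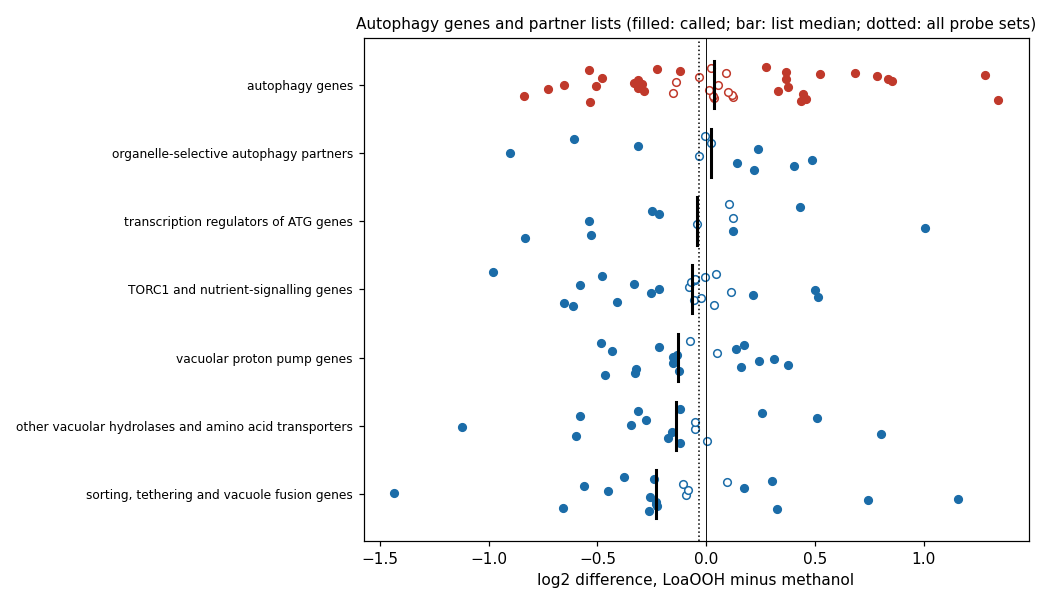
Each point is the log2 difference (LoaOOH minus methanol, deposited scaling) of 1 gene in the autophagy set (top row) or in 1 of 6 partner lists, filled where called, with a bar at the list's median and a dotted line at the median of all probe sets (-0.03). The list medians run from -0.23 for sorting, tethering and vacuole fusion to 0.03 for the autophagy genes, and all lists spread to both sides of 0.

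Replicate spread within the 41 was low, with an SD under 0.1 in both groups in 29 members and standard errors of the difference from 0.0391 to 0.115. Across the 41 genes the correlation of the difference was -0.14 (Pearson) and -0.22 (Spearman) with the methanol signal, and -0.28 by either measure with the log2 gene length. These values describe 41 genes that share the same 6 arrays, and genes are not independent replicates. The members lie on 15 chromosomes. Of the 36 genes listed by name 11 were higher (30.6%) and 13 lower (36.1%), against 36.8% and 41.9% of all probe sets. The 5 that the name pattern added held 4 higher and 1 lower. All 5 were called, where 78.7% of all probe sets were, and they are too few to compare shares.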

How the data were processed

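RNA of 6 yeast cultures was hybridised to 1-colour arrays. The deposited values are log2 signals that the authors obtained by RMA; RMA and Partek are the tools in the submitters' processing notes, which give neither versions nor roles. The genome build of the array and any mask on its probes were not given in the sources used here. The table held 5900 probe sets: 184 controls, 218 that the platform annotation leaves unnamed, and 5498 that each named 1 gene. Gene identifiers of all 5498 matched the R64 gene table, which updated 12 symbols and gave chromosomes and lengths.

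Both groups entered 1 fit over the 5498 probe sets by lmFit and eBayes of limma 3.58.1, run in R 4.3.3, two-sided and with no covariate. Calls were made where the adjusted p (Benjamini-Hochberg) was under 0.05. Differences subtract the methanol mean from the LoaOOH mean, and folds are 2 raised to them. Intervals are at 95%, and no filter on low values was applied. Controls were compared by exact permutation. Data were simulated with the spread of this comparison (5498 probe sets, 50 of them changed at each size). There, 52% of changes of 0.25, 90% of 0.5 and 100% of 1 and 2 were recovered, with 9 false calls among 5298. In the measured data 78.7% of probe sets were called, a far larger share than was changed in the simulation. The adjustment is then less strict, so these rates need not hold for the measured data. Precision is limited by the number of arrays, and p-values reflect the spread among these cultures. At most 0.109% of values were equal on any pair of arrays.

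Members and lists were chosen with earlier results of these data known. Any member could be named, and from each partner list the 3 called genes with the largest change each way, or all where a direction had 5 or fewer calls. Alternatives were repeated quantile normalisation, poly-A spike-in scaling, a variance trend with robust fitting, array weights, dropping the dimmest 25% of probe sets, the dimmest probe set per gene, an adjusted p under 0.01, a replicate block, and each array left out. VPS11, VPS18 and VPS39 of the lists were not analysed here.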

Additional observations from a re-analysis of the deposited data

How the results depend on the processing

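Leaving aside the spike-in scaling, 28 of the 29 called members kept direction and call in every alternative that measured them, and PEP4 did not. Taking the dimmest probe set per gene could not change any member, because each has 1 probe set. Dropping the dimmest 25% of probe sets removed 13 of the 41. The called members among them, which that alternative could not test, were ATG2, ATG9, ATG10, ATG14, ATG16, ATG23 and ATG36. After spike-in scaling the higher and lower counts were 29 and 1 for autophagy genes (median 0.55), 14 and 1 for TORC1 and nutrient signalling, 7 and 1 for transcription regulators, 12 and 1 for sorting and fusion, 10 and 1 for vacuolar hydrolases and transporters, 13 and 0 for the proton pump, and 8 and 1 for organelle-selective partners. Calls after this scaling follow the difference alone, as set out above. All 15 higher members stayed higher, 12 not called became higher, and of 14 lower members 11 lost the call, 2 turned higher and 1 remained. Members that changed sign there were PEP4 (0.40), ATG19 (0.23), VPS15 (0.29), ATG34 (0.20), ATG22 (0.21), ATG26 (0.0093), ATG31 (0.19), ATG3 (0.22), ATG17 (0.36), ATG39 (0.038), ATG32 (0.38) and ATG4 (0.48), and 49 of the 98 partner genes did so too, 33 of them called lower in the deposited scaling. Those named in the text were PTC6 (0.20), SIN3 (0.30), SPT10 (0.27), STV1 (0.053), VMA6 (0.086) and VPH1 (0.034); the scaling adds 0.518 to every difference.

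Small differences that were not called changed sign for ATG20 with array weights (-0.0048), and over the arrays left out in turn they ran from -0.0492 to 0.0532 for ATG20, -0.0197 to 0.0636 for ATG11, -0.0656 to 0.00341 for ATG4 and -0.00245 to 0.0497 for VPS30. Of members not called, ATG12 was called with quantile normalisation (0.16, adjusted p = 0.038) or array weights (0.20, 0.00299), ATG18 with quantile normalisation (0.13, 0.0417) and ATG32 with array weights (-0.20, 0.00513). Without the dimmest 25%, 9 members were higher and the median was -0.055, fewer genes being tested. Higher transcription regulators numbered 5 with quantile normalisation, array weights or the replicate block, and higher proton pump genes 2 with quantile normalisation. Lower hydrolases and transporters numbered 6 at an adjusted p under 0.01. Leaving out 1 array gave 15 to 16 members higher, 13 to 15 lower and a median of 0.01 to 0.06, and 6 to 10 lower hydrolases and transporters. The cause of these changes was not tested.

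Deviations of same-numbered arrays correlated at 0.31, 0.049 and 0.26, and those of differently numbered arrays at -0.30 to 0.13. Methanol replicate 2 correlated slightly better with LoaOOH replicate 1 (0.065). The numbers were not taken as pairs, though these values cannot settle whether the cultures were paired. With the replicate block 16 members were higher and 15 lower, ATG12 (adjusted p = 0.0322) and ATG32 (0.0131) being added, and the median stayed at 0.03.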
